A study of Mus musculus with 12 samples.

Results

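The 9 genes described here, Pmepa1, Bambi, Smad6, Smad7, Skil, Ski, Spsb1, Smurf1 and Smurf2, encode inhibitors of SMAD signaling and adaptors or enzymes that attach ubiquitin to its components. They were chosen by gene symbol from the 18376 genes of a table of normalized counts, and all 9 were present and abundant enough to be tested. The study asked how activin A acts on macrophages, and sequenced mRNA of bone marrow-derived macrophages (BMDMs) of adult wild type C57BL6/J mice. Such cells are obtained by growing progenitors from the marrow with the growth factor M-CSF. All 12 cultures received M-CSF at 50 ng/ml. The CTRL group had no further addition, the Act group received 50 ng/ml activin A, the FST group received 250 ng/ml FST288, a form of follistatin that binds and neutralizes activin, and the Act+FST group received both proteins at these doses. Each group had 3 libraries, made at day 6. Each value thus describes cultures after 6 days of exposure and not the first hours of signaling. In such bulk samples, fewer cells of a type and less RNA per cell cannot be told apart. Neither the labels nor the methods say whether the replicates came from separate mice or cultures, so p-values measure the spread among these libraries.

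Activin A binds receptor kinases at the cell surface, which phosphorylate SMAD2 and SMAD3. These join SMAD4, enter the nucleus and switch genes on or off, and among the genes they switch on in many cell types are the inhibitors of the same pathway. The inhibitors act at successive steps: PMEPA1 and BAMBI at the membrane, SMAD6 and SMAD7 at the activated receptor, SKI and SnoN (the product of Skil) on the SMAD complex at DNA, and SPSB1, SMURF1 and SMURF2 by bringing ubiquitin to receptors or SMADs. Ubiquitin marks proteins for degradation. All coordinates are on GRCm38, and the ends of each gene were the same in the deposited table and in the GENCODE M21 annotation. Pmepa1 (ENSMUSG00000038400) lies at chr2:173224458-173276533, Spsb1 (ENSMUSG00000039911) at chr4:149896283-149955043, Smad6 (ENSMUSG00000036867) at chr9:63953076-64022059, Ski (ENSMUSG00000029050) at chr4:155154075-155222592, Smurf1 (ENSMUSG00000038780) at chr5:144876495-144965847 and Smurf2 (ENSMUSG00000018363) at chr11:106820066-106920715, all on the minus strand. Skil (ENSMUSG00000027660) lies on the plus strand at chr3:31095058-31122577, and Smad7 (ENSMUSG00000025880) and Bambi (ENSMUSG00000024232) are both on chromosome 18.

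In untreated BMDMs the 9 genes covered a wide range of levels. To compare genes with each other, normalized counts were divided by the length of each gene's exons in kilobases. Ski stood highest in CTRL, at 251 ± 7.83 normalized counts per kilobase (SD, n = 3), and Smad6 lowest, at 3.54 ± 0.901. Smurf2 (114 ± 7.98) and Smurf1 (102 ± 5.93) came next to Ski, and their libraries overlapped. They were followed by Skil (60.8 ± 5.20), Bambi (19.1 ± 1.61) and Smad7 (11.7 ± 0.442), whose libraries were each apart from the next lower gene. Spsb1 (7.51 ± 2.40), Pmepa1 (4.95 ± 4.55) and Smad6 formed the bottom of the order, with overlapping libraries. Thus the ligases and Ski were abundant without activin A, whereas Spsb1, Pmepa1 and Smad6 were sparse. Averaged over the 12 libraries, Ski ranked at percentile 96.1 of all genes per kilobase and Smad6 at percentile 33.

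The order was different in the Act group. Ski remained first at 299 ± 13.2 normalized counts per kilobase, but Pmepa1 moved from eighth place in CTRL to the second, at 164 ± 12, with all 3 libraries above those of the next gene, Skil (146 ± 4.45). Smurf2 (135 ± 7.09), Smurf1 (128 ± 3.47) and Spsb1 (128 ± 14.2) followed with overlapping libraries, so that Spsb1, at a small share of the SMURF levels in CTRL, was at their level with activin A. Smad7 (40.5 ± 2.39) then stood above Bambi (26.7 ± 0.301), the reverse of their order in CTRL, and Smad6 (25.7 ± 6.81) overlapped Bambi. In Act+FST the 9 genes stood in the CTRL order. In FST the order differed from that of CTRL only among the lowest 3 genes, where Smad6 (4.68 ± 1.25) and Spsb1 (4.63 ± 0.348) overlapped and Pmepa1 was last at 1.29 ± 0.470.

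**Figure D1:**
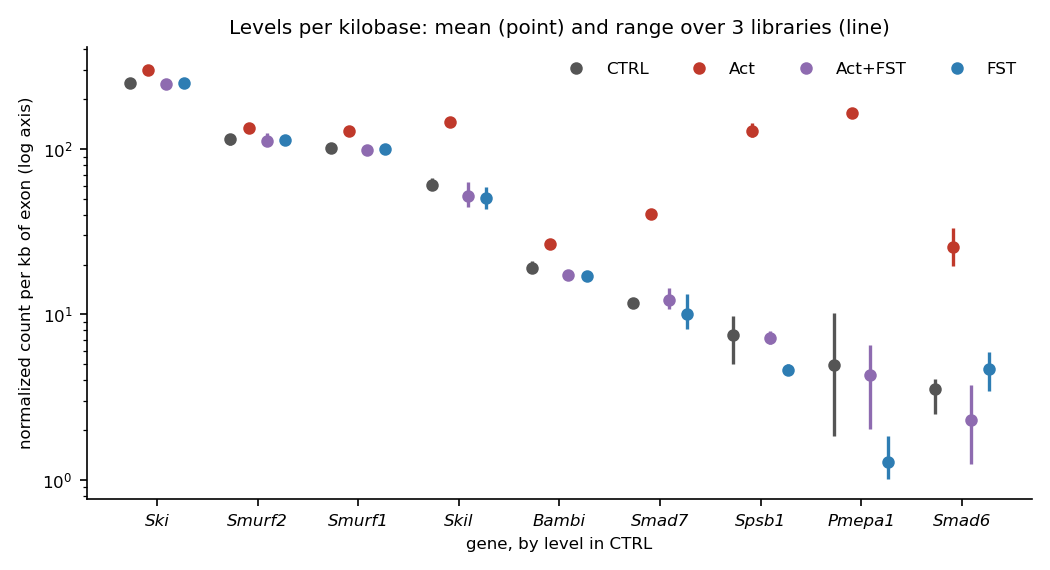
Normalized counts per kilobase of exon on a log axis for the 9 genes, ordered by their level in CTRL; points are means of 3 libraries and lines run from the lowest to the highest library. Pmepa1, Spsb1 and Smad6 lie lowest in the 3 groups other than Act, and Pmepa1 is second to Ski in Act (164 against 299 per kilobase).

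All 9 genes were higher in Act than in CTRL, in 9 of 9 cases without any overlap between the 3 Act and the 3 CTRL libraries and in 3 of 3 pairs of libraries with the same replicate number. The test was limma on log2(normalized count + 1), fitted over 14318 genes and 12 libraries, with Benjamini-Hochberg adjusted p-values, and a gene passed at an adjusted p of 0.05 or less. All 9 genes passed, and 5 of them rose at least 2-fold (DEGs): Pmepa1, Spsb1, Smad6, Smad7 and Skil. Of all genes tested, 10.3% passed as higher, 2.58% were DEGs that rose and 18% were higher without overlap. The median log2 fold change was 1.26 over the 9 genes and 0.0036 over all genes tested. The 9 genes were chosen with earlier results of these data known, so these shares and medians are a description. Fold changes are on the log2(normalized count + 1) scale, which understates the change of the lowest genes.

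At the membrane, PMEPA1 is a transmembrane protein that binds SMAD2 and SMAD3 and keeps them from the receptor, and also recruits ubiquitin ligases. The Pmepa1 normalized counts were 14, 50 and 9 in CTRL, 756, 792 and 871 in Act, 32, 21 and 10 in Act+FST, and 5, 9 and 5 in FST. The Act libraries were high and close together, and the spread lay on the low side, where CTRL replicate 2 held more than the other 2 CTRL libraries combined. The rise in Act over CTRL was 40.9-fold with a 95% interval from 18.7 to 89.3 (log2 5.35 ± 0.52 SE, adjusted p = 1.8e-05), and its log2 value was 6.04 without CTRL replicate 2. BAMBI is a decoy receptor, related to the type I receptors but without a kinase domain. Bambi was at 106, 95 and 90 in CTRL, 137, 135 and 134 in Act, 89, 86 and 90 in Act+FST, and 89, 82 and 89 in FST. Its rise was small, 1.39-fold (log2 0.48 ± 0.09 SE, adjusted p = 0.0025), but the Act libraries differed from each other by only 3 normalized counts and lay above every other library.

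The inhibitory SMADs lack the tail that receptors phosphorylate. SMAD7 binds type I receptors of the activin, TGF-β and BMP branches, and SMAD6 acts mainly on the BMP branch. Smad7 was at 53, 51 and 55 in CTRL, 192, 171 and 186 in Act, 65, 51 and 49 in Act+FST, and 60, 37 and 39 in FST. Smad6 was at 13, 13 and 8 in CTRL, 63, 78 and 106 in Act, 12, 4 and 6 in Act+FST, and 11, 19 and 15 in FST. Both genes were separated from the other 9 libraries in Act, Smad7 with little spread and Smad6 with an SD of 21.8 around a mean of 82.3. Smad6 rose 6.74-fold (95% interval 3.94 to 11.5, log2 2.75 ± 0.36 SE, adjusted p = 1.8e-04) and Smad7 3.41-fold (95% interval 2.62 to 4.43, log2 1.77 ± 0.17 SE, adjusted p = 2.1e-05). Smad7 remained the more abundant of the pair per kilobase in Act.

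The promoter of Smad6 is shown because it holds the palindromic SMAD element. Promoter windows of 300 bases, 250 before and 50 from the transcription start on, were taken from RefSeq (GRCm38.p6), which held them for 5 of the 9 genes: Smad6, Spsb1, Ski, Smurf1 and Smurf2. Pmepa1, Bambi, Smad7 and Skil were not matched. Among 32841 such windows, 70 (0.213%) held the palindrome GTCTAGAC, to which SMAD3 and SMAD4 bind in vitro, and 49.6% held the shorter CAGAC on either strand; the palindrome does not itself contain CAGAC. In Smad6 the palindrome begins at base -4 from the start and so spans it. The first 270 bases of the window follow, minus strand, chr9:64022040-64022309, with the palindrome in capitals.
Smad6: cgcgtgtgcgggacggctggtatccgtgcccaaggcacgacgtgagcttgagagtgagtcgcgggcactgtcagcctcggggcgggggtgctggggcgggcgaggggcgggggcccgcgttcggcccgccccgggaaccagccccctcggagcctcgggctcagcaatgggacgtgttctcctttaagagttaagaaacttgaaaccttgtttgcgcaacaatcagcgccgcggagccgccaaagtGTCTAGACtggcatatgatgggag

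At the DNA, SKI and SnoN bind SMAD complexes and recruit corepressors that keep target genes silent. Skil was at 646, 549 and 574 in CTRL, 1451, 1367 and 1426 in Act, 612, 468 and 434 in Act+FST, and 571, 479 and 421 in FST. Ski was at 1444, 1360 and 1382 in CTRL, 1727, 1584 and 1684 in Act, 1389, 1420 and 1308 in Act+FST, and 1420, 1403 and 1365 in FST. The more abundant paralog moved less: Ski rose 1.19-fold (log2 0.25 ± 0.05 SE, adjusted p = 0.0019), and Skil rose 2.40-fold (95% interval 1.99 to 2.89, log2 1.26 ± 0.12 SE, adjusted p = 2.0e-05). Per kilobase, Skil stood at 60.8 against 251 for Ski in CTRL and at 146 against 299 in Act.

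SPSB1 carries a SOCS box, through which it brings substrates to a cullin ubiquitin ligase, and the type II TGF-β receptor is among its known substrates. Spsb1 was at 34, 43 and 22 in CTRL, 532, 522 and 635 in Act, 35, 29 and 31 in Act+FST, and 20, 22 and 19 in FST. It rose 17.1-fold (95% interval 12.6 to 23.2, log2 4.10 ± 0.20 SE, adjusted p = 3.2e-07), second to Pmepa1 in size, and had the smallest adjusted p of the 9 genes. SMURF1 and SMURF2 are HECT-type ligases that SMAD7 can carry to the receptor. Smurf1 was at 683, 608 and 641 in CTRL, 812, 791 and 835 in Act, 671, 606 and 584 in Act+FST, and 649, 609 and 633 in FST. Smurf2 was at 751, 653 and 709 in CTRL, 879, 812 and 797 in Act, 767, 657 and 649 in Act+FST, and 735, 695 and 676 in FST. The Act libraries of both were above all others, by a narrow margin for Smurf2, whose highest Act+FST library held 767 against 797 in the lowest Act library. Smurf1 rose 1.26-fold (log2 0.34 ± 0.06 SE, adjusted p = 0.0012) and Smurf2 1.18-fold (log2 0.24 ± 0.07 SE, adjusted p = 0.032). The Smurf2 call was not kept in every fit that left out 1 library. The adjusted p was 0.129 without CTRL replicate 2 (log2 0.18) and 0.121 without Act replicate 1 (log2 0.19). It was 0.0762 without CTRL replicate 3 (log2 0.24) and 0.0634 without Act replicate 2 (log2 0.25), where the estimate was no smaller. With the replicate number as a block in limma, the adjusted p for Smurf2 was 4.8e-04. Of the exonic bases of Spsb1, 2.34% are shared with the antisense gene Gm13070, and of those of Smurf2, 0.941% with the miRNA gene Gm27322 on the same strand. Reads on several genes were left out by the study's counting, so reads from these bases may be missing.

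The promoters of Spsb1 and Smurf1 are shown as a contrast: the gene with the larger rise holds no match, and the gene with the smaller rise holds CAGAC at bases -192 (as its complement GTCTG) and -145 from the start. Neither holds GTCTAGAC. Also searched on both strands were GGCGCC (11.9% of all windows), a GC-rich SMAD element, and TGANTCA (7.81%), the AP-1 site, with N for any base. GGCGCC occurred once in Ski, at base -220, and at 2 places in Smurf2, at -234 and -147, and Smurf2 also held CAGAC at -203 and at base 28 from the start on. TGANTCA occurred in none of the 5 windows. The 5 windows held between 66.3% (Spsb1 and Smad6) and 85.3% (Ski) G and C, against a median of 52.7% over all windows. These matches describe letters and do not show binding. The first 270 bases of both windows, minus strand, follow with CAGAC or GTCTG in capitals, Spsb1 from chr4:149954987-149955256 and Smurf1 from chr5:144965811-144966080.
Spsb1: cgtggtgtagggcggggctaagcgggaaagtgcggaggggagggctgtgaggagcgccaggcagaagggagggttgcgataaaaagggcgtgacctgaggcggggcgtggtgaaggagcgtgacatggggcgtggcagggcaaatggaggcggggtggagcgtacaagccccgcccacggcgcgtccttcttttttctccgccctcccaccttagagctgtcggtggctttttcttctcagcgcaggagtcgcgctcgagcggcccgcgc
Smurf1: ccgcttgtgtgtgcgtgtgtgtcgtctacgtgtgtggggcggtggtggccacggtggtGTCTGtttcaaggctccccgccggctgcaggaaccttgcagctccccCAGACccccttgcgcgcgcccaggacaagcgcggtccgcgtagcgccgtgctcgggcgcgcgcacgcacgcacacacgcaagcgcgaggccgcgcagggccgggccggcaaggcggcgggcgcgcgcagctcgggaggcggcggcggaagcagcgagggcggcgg

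**Figure D2:**
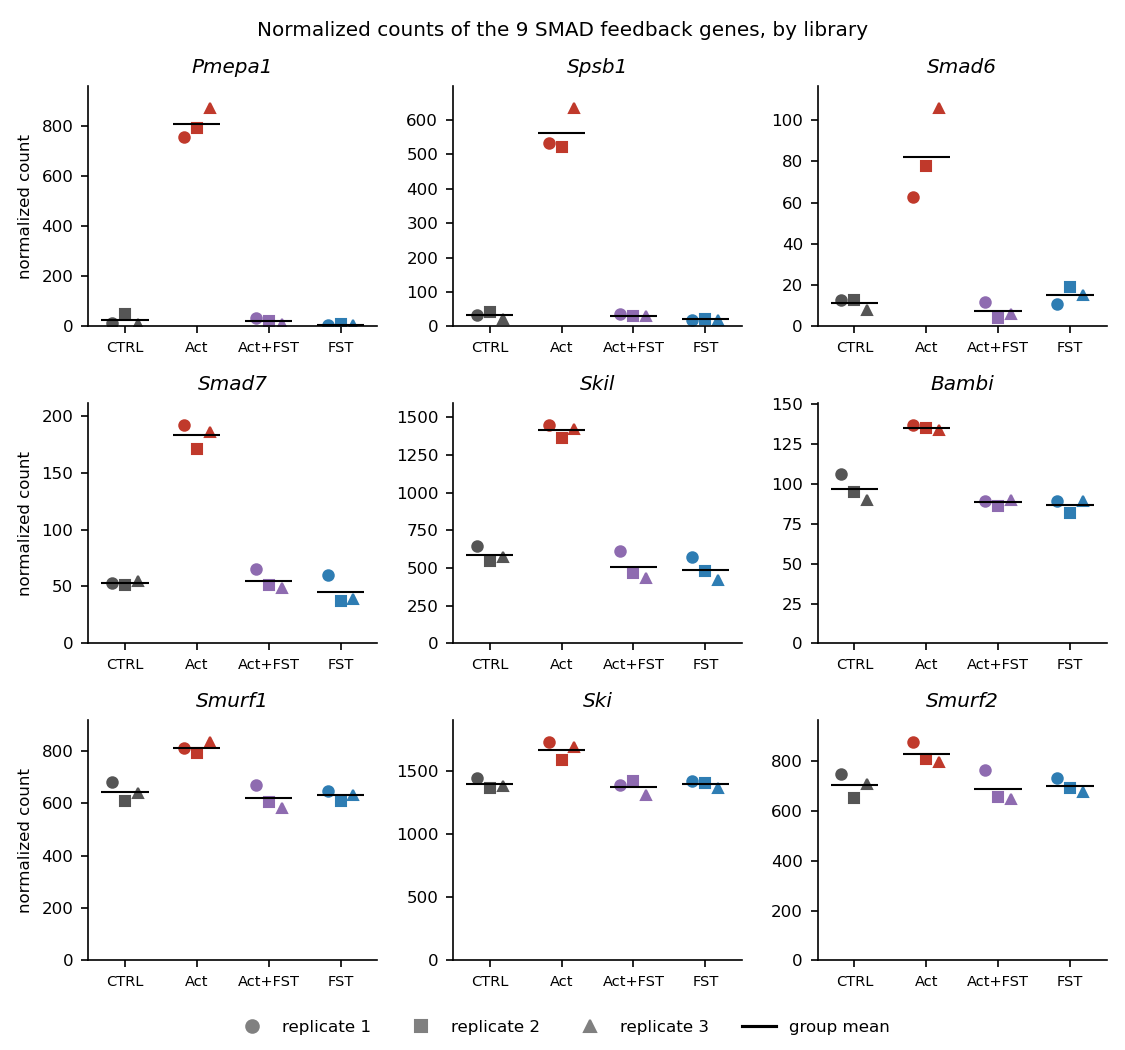
Normalized counts of each gene in the 12 libraries, 1 panel a gene with its own linear axis from 0; symbols mark the replicate number and black lines the mean of 3 libraries. The Act libraries lie above all 9 other libraries in every panel, from 871 against 50 at most elsewhere for Pmepa1 to 797 at least against 767 for Smurf2.

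The comparison of Act with Act+FST asks what FST288 takes away while activin A is present. It shares the Act libraries with the comparison above, so both sets of values stand side by side and neither repeats the other independently. All 9 genes were higher in Act (11.1% of all genes tested passed as higher), the same 5 genes were DEGs (2.72%), and in 9 of 9 the libraries did not overlap (17.4%). The log2 difference was 5.33 ± 0.52 SE for Pmepa1 (adjusted p = 2.0e-05), 4.11 ± 0.20 for Spsb1 (adjusted p = 5.2e-07), 3.41 ± 0.36 for Smad6 (adjusted p = 3.4e-05), 1.73 ± 0.17 for Smad7 (adjusted p = 2.6e-05) and 1.50 ± 0.12 for Skil (adjusted p = 6.1e-06). The other 4 genes differed by less, with log2 values of 0.61 for Bambi, 0.39 for Smurf1, 0.28 for Ski and 0.27 for Smurf2. The first 3 of these had adjusted p-values between 4.1e-04 and 9.7e-04. Smurf2 had an adjusted p of 0.017, which was 0.0723 without Act replicate 1, 0.065 without Act+FST replicate 2 and 0.0721 without Act+FST replicate 3. The median over the 9 genes was 1.50, against -0.0025 over all genes tested.

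With FST288 present, activin A gave no difference from CTRL that passed. In Act+FST versus CTRL, 0 of 9 genes and 0% of all genes passed in limma, and 0 of 9 had an unadjusted p under 0.05, which 4.57% of all genes (655) had. With the replicate number as a block, 80 genes passed (0.559%), none of them among the 9, and Skil was the 1 gene of the 9 with an unadjusted p under 0.05 (0.0046, adjusted p = 0.175), which 9.81% of all genes had. The estimates lay close to 0 for Pmepa1 (log2 0.02), Spsb1 (-0.01), Smad7 (0.04), Ski (-0.02), Smurf1 (-0.05) and Smurf2 (-0.03). The precision differed: the 95% interval ran from -1.11 to 1.15 for Pmepa1, which leaves room for a 2-fold difference, and from -0.12 to 0.08 for Ski. Smad6 had the lowest estimate (-0.65, 95% interval -1.43 to 0.12), followed by Skil (-0.24, 95% interval -0.51 to 0.03, or -0.39 to -0.09 with the block) and Bambi (-0.13, 95% interval -0.33 to 0.07). Smad6, Skil and Smurf1 were lower in 3 of 3 pairs with the same replicate number, Smurf1 by log2 values of only -0.03, -0.005 and -0.13. The share of all genes with 3 such pairs was not computed.

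FST288 was also given without activin A, to BMDMs grown with M-CSF. Which ligands it bound there was not tested. In FST versus CTRL, 0 of 9 genes and 0% of all genes passed in limma, with and without the replicate block. An unadjusted p under 0.05 was found for 3 of the 9 genes, and for 2.09% of all genes (299). All 3 were lower with FST288: Pmepa1 by a log2 value of -1.47 (unadjusted p = 0.015), Spsb1 by -0.62 (unadjusted p = 0.0091) and Skil by -0.27 (unadjusted p = 0.047), each in 3 of 3 pairs (share of all genes not computed). Their adjusted p-values were 1, and 0.719, 0.795 and 0.719 with the replicate block. The Pmepa1 value rested largely on CTRL replicate 2, without which it was -0.78 (unadjusted p = 0.0745), and Spsb1 without that library stood at -0.41 (unadjusted p = 0.0501). For Skil, the value was -0.17 without FST replicate 3. Bambi was the 1 gene of the 9 whose FST libraries (82 to 89) did not overlap the CTRL libraries (90 to 106), with 2.61% of all genes lower without overlap, and its unadjusted p was 0.105. The other 5 genes had log2 values from -0.25 (Smad7) to 0.37 (Smad6).

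Act+FST versus FST compares cultures with and without activin A when FST288 is present in both. It shares the FST libraries with FST versus CTRL, so the 2 comparisons are not independent. The same low FST values of Pmepa1 and Spsb1 enter both, and in Act+FST versus CTRL these genes were at log2 0.02 and -0.01. No gene of the 9 and 0% of all genes passed in limma, and the block, under which 31 genes (0.217%) passed, added none of the 9. An unadjusted p under 0.05 was found for 3 of the 9 genes and for 3.51% of all genes (502). Pmepa1 (log2 1.49, unadjusted p = 0.014) and Spsb1 (log2 0.61, unadjusted p = 0.010) were higher with both proteins than with FST288 alone, and these 2 of 9 genes had no overlap between the groups, as had 3.17% of all genes. Smad6 was lower (log2 -1.03, unadjusted p = 0.014), with overlapping libraries. Its value was -0.72 without Act+FST replicate 2 and -1.40 without Act+FST replicate 1. The Pmepa1 value also moved, to 1.13 without Act+FST replicate 1 (unadjusted p = 0.0651) and to 1.92 without Act+FST replicate 3. For Pmepa1, Spsb1 and Smad6 the adjusted p was 1 each, and 0.191, 0.339 and 0.41 with the replicate block. The levels concerned were low, with Pmepa1 means (SD, n = 3) of 21 ± 11 under both proteins and 6.33 ± 2.31 under FST288 alone, against 806 ± 58.8 in Act.

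**Figure D3:**
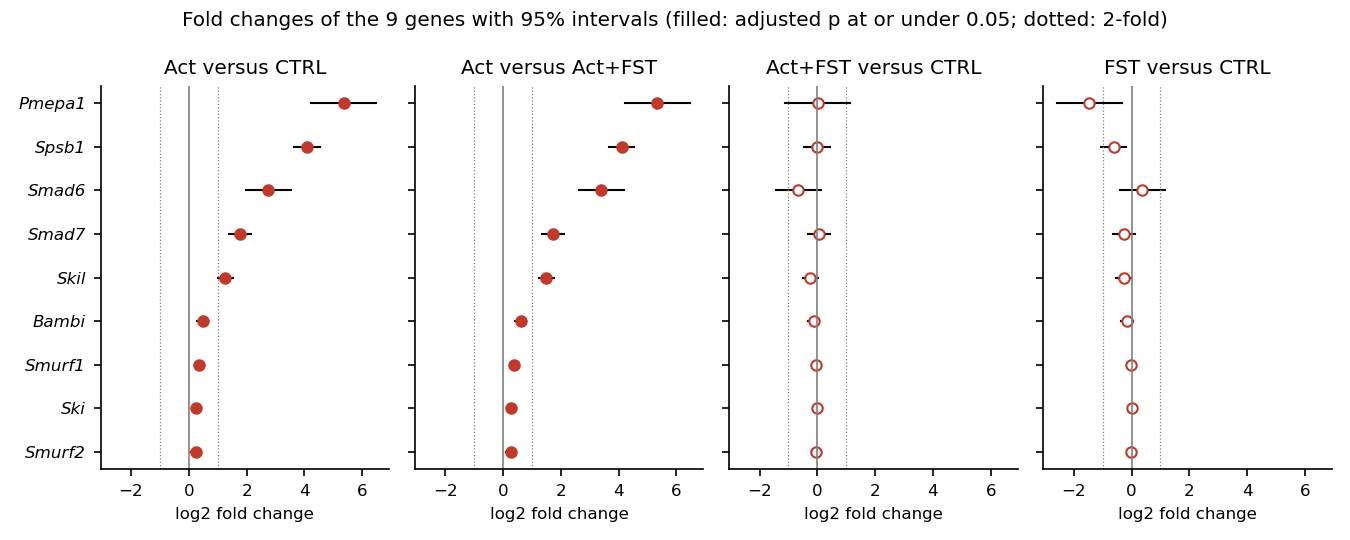
Log2 fold changes (points) with 95% intervals (lines) of the 9 genes in 4 comparisons; filled points passed at an adjusted p of 0.05 or less, and dotted lines mark a 2-fold change. The 9 genes run from 5.35 to 0.24 in Act versus CTRL and are all open in both comparisons at the right, where Pmepa1 has the widest interval.

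Whether FST288 changed the activin A effect was tested directly, as the difference between the Act versus CTRL and the Act+FST versus FST log2 values. Of the 9 genes, 7 passed, all with a larger effect without FST288, against 3.99% of all genes. The difference was 3.86 for Pmepa1 (adjusted p = 0.0077), 3.78 for Smad6 (adjusted p = 0.001), 3.48 for Spsb1 (adjusted p = 7.5e-05), 1.47 for Smad7 (adjusted p = 0.0037) and 1.23 for Skil (adjusted p = 0.0014). Without CTRL replicate 2 the Pmepa1 difference was 4.55. Smurf1 (0.36, adjusted p = 0.018) and Ski (0.28, adjusted p = 0.023) also passed, with less margin. Smurf1 did not pass without Act replicate 3 (adjusted p = 0.0509) or without FST replicate 1 (adjusted p = 0.0508). Ski did not pass in 7 of the 12 fits that left out 1 library, those without CTRL replicate 2 or 3, Act replicate 1 or 3, Act+FST replicate 3, or FST replicate 1 or 2, with adjusted p-values from 0.0513 to 0.0625. Bambi (0.45, adjusted p = 0.0555) and Smurf2 (0.26, adjusted p = 0.154) did not pass. Both passed with the replicate number as a block, with adjusted p-values of 0.0283 and 0.0061, in a fit in which 9.36% of all genes passed in this direction.

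Within groups, some of the genes varied together from library to library. After each group's mean was subtracted, Pearson's r over the 12 libraries was 0.869 for Skil and Smurf2, 0.820 for Skil and Smad7, 0.811 for Smurf1 and Smurf2, 0.802 for Skil and Smurf1, and 0.787 for Pmepa1 and Spsb1. Libraries of different groups share replicate numbers, and these values are a description. For example, replicate 1 held the highest Smurf2 and Skil values in each of the 4 groups, and CTRL replicate 2 held the highest CTRL value of both Pmepa1 and Spsb1.

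The genes most alike in pattern were looked up among 10626 genes with a mean of at least 50, by Pearson's r of log2 values over the 12 libraries, of which the 3 Act libraries stand apart for each of the 9 genes and so set most of r. For Pmepa1 these were Mmp2 (r = 0.987), Trpm2 and B4galnt1, and for Spsb1 AU020206 (r = 0.994), B4galnt1 and Zfp691. The 2 strongest risers thus shared 1 neighbor, B4galnt1, which itself rose by only 0.38 on the log2 scale. For Smad7 they were 1700017B05Rik (r = 0.991), Chd7 and Mvb12b, for Smad6 Errfi1 (r = 0.964), Bach2os and Rnf217, and for Skil Sipa1l2 (r = 0.994), Ptgfrn and Dennd4a. For the genes that rose less, they were Atp2c1 (r = 0.975), Inpp5d and Casp2 for Ski, Dennd4a (r = 0.986), Notch1 and Ppp1r12b for Smurf1, Trps1 (r = 0.984), Nrip1 and Chd1 for Smurf2, and Dkc1 (r = 0.983), Rai14 and Ppp1r12b for Bambi. Dennd4a was listed for both Skil and Smurf1, and Ppp1r12b for both Smurf1 and Bambi.

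Other genes of the pathway moved in both directions in Act versus CTRL. Of all genes tested, 10.3% passed as higher and 9.97% as lower, and with the replicate block 16.3% and 15.2%. The share with the block was 17.1% as higher in Act versus Act+FST. Of 11 receptor genes tested, 2 rose and 2 fell. Tgfbr1, the type I receptor kinase that SMAD7 and the SMURFs act on, rose by a log2 value of 0.87 ± 0.07 SE (adjusted p = 3.8e-06), from 1224, 1083 and 1165 normalized counts in CTRL to 2268, 1950 and 2149 in Act, and Tgfbr3, the coreceptor betaglycan, fell by 1.16 ± 0.26 (adjusted p = 0.007). Of 5 SMAD transducers, Smad5 (0.33) and Smad3 (0.30) rose and none fell, and of 5 other nuclear corepressors, 2 rose, among them Tgif1 (0.25), and none fell. The 15 other ligases, phosphatases and deubiquitinases of the pathway had none that passed in limma, and with the replicate block 1 passed as higher and 2 as lower. Among them, Rnf111, the ligase of SKI, SnoN and SMAD7, was at a log2 value of -0.02 (95% interval -0.10 to 0.07, adjusted p = 0.829).

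Of 8 relatives of the 9 genes tested, 4 rose and none fell (1 fell with the replicate block). Ldlrad4, a paralog of Pmepa1 that likewise holds SMAD2 and SMAD3 at the membrane, rose by 1.22 ± 0.18 SE (adjusted p = 3.9e-04), and its normalized counts were 200, 131 and 152 in CTRL and 422, 338 and 354 in Act. The SOCS-box genes Socs3 (1.15 ± 0.16, adjusted p = 3.4e-04) and Socs2 (1.00 ± 0.20, adjusted p = 0.0038), inhibitors of cytokine receptor signaling, were the other DEGs. The Spsb1 paralogs Spsb2 (0.01), Spsb3 (0.10) and Spsb4 (-0.76) did not pass, with adjusted p-values of 0.971, 0.482 and 0.0573. Of 8 extracellular antagonists and ligands tested, 2 fell and none rose: Gdf15 (-1.08) and Bmp2 (-1.02). With the block, Lefty1 also passed as higher (1.35, adjusted p = 0.045). Of 9 further SMAD2/3 targets known from other cells, 5 rose and 2 fell. Cdkn2b, a cell cycle inhibitor, fell by 1.56 ± 0.45 (adjusted p = 0.027). Of the targets of the BMP branch, on which SMAD6 acts, Id3 (0.77, adjusted p = 0.0723) and Id2 (0.15, adjusted p = 0.122) were tested and did not pass, while both passed with the replicate block. In Act+FST versus CTRL and in FST versus CTRL, 0 genes of these 8 lists passed. With the block, Spsb4 passed as lower in Act+FST versus CTRL (-0.89, adjusted p = 0.0486). The lists were chosen with earlier results of these libraries known, and differences between them were not tested.

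**Figure D4:**
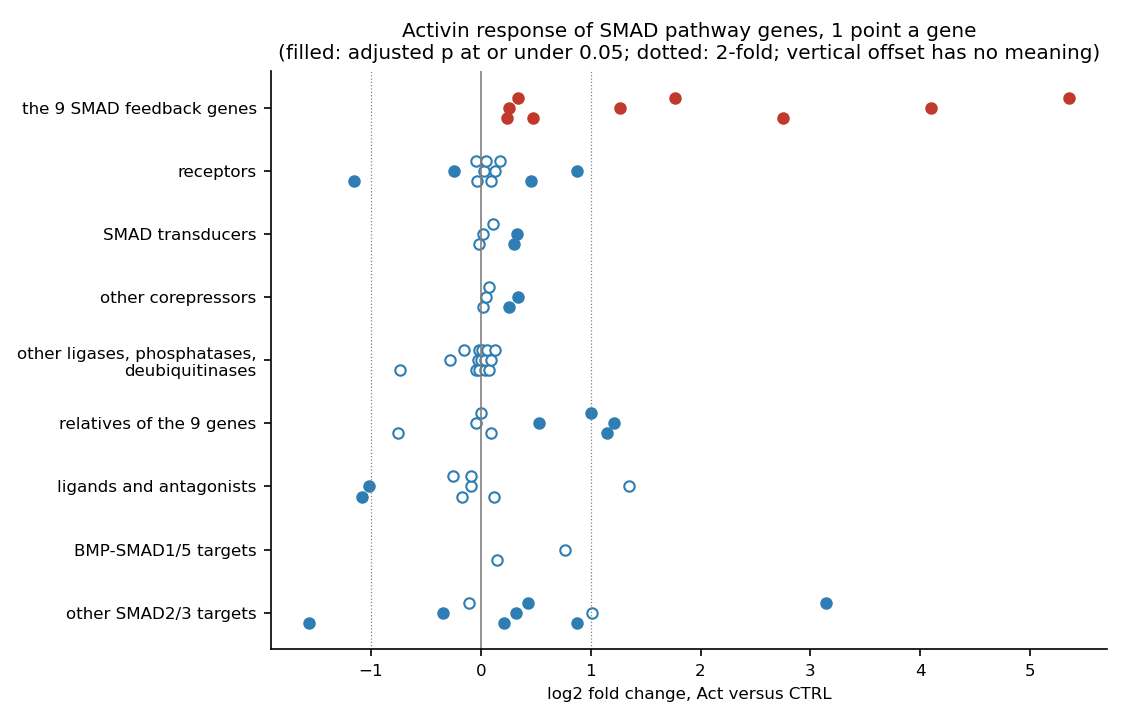
Log2 fold change in Act versus CTRL of the 9 SMAD feedback genes (top) and of the tested genes of 8 pathway lists, 1 point a gene, filled where the adjusted p was 0.05 or less; dotted lines mark a 2-fold change. The 9 genes are all filled and to the right of 0, whereas the 15 other ligases, phosphatases and deubiquitinases are all open.

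The cultures carried macrophage markers, with summed normalized counts of 8 markers between 11172 and 12394 in all 12 libraries. Of the 8, Cd14 was higher in Act, from a mean of 702 in CTRL to 824 (log2 0.23, adjusted p = 0.026). The monocyte marker Ccr2 was higher in Act, as were the 9 genes, at 932, 873 and 940 normalized counts against 633, 508 and 272 in CTRL and 765, 537 and 391 in Act+FST (log2 1.04 for Act versus CTRL, adjusted p = 0.043). Ly6c2, another monocyte marker, did not pass (0.34, adjusted p = 0.604). The sum of 6 stromal markers was low and variable (8 to 63 in CTRL, 19 to 227 in Act, 7 to 101 in Act+FST), 0 of the 3 tested passed in limma, with 1 higher under the replicate block, and Lum was not in the table. The sum of 7 neutrophil and progenitor markers was 840 to 1124 in CTRL and 658 to 964 in Act, so the ranges overlapped. Of the 7, Mpo and Elane passed as lower. S100a8 (log2 0.09), S100a9 (0.07), Ngp (-0.11), Camp (-0.37) and Ly6g (-0.53) did not pass. The sums of the endothelial, dendritic cell, lymphocyte, erythroid and megakaryocyte, osteoclast, and RNA or stress lists overlapped between Act and CTRL. Single genes of these lists passed nonetheless: the endothelial marker Pecam1 (1.12, adjusted p = 0.033) and the osteoclast marker Acp5 (1.18, adjusted p = 0.0018) rose, and Ctsk (-1.64, adjusted p = 6.7e-05) of the osteoclast list, Cd209a (-2.27, adjusted p = 0.011) of the dendritic cell list and Ddit3 (-0.33, adjusted p = 0.0037) of the stress list fell. Kdr, also of the endothelial list, moved the other way from Pecam1 in Act versus CTRL (log2 -0.55). It passed as lower only with the replicate block (adjusted p = 0.015), and Cdh5 (0.47) did not pass. Flt3 of the dendritic cell list (1.25) moved the other way from Cd209a, and Fos of the stress list (0.47) the other way from Ddit3. Both passed as higher only with the replicate block (adjusted p = 0.021 for each). With the block, 1 gene of the stress list passed as higher and 2 as lower. The part of these differences in the values of the 9 genes was not tested. Total normalized counts per library ran from 5643708 to 5955400.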

How the data were processed

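The study trimmed reads with Trimmomatic 0.39, aligned them to mm10 with STAR 2.7.9a, counted them per gene with featureCounts 2.0.2, without reads that matched more than 1 gene or position, and used DESeq2 1.30.0 for its own tests, per the labels and methods. The deposited signal values are normalized counts. From the values, the authors scaled the counts of each library by 1 factor and rounded them to whole numbers, with a formula not given in the sources used here, so they are not raw counts and the depth before scaling is unknown. The strand setting of the counting is not given in the sources used here. Library totals after scaling give no precision of single values.

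From these values, log2(normalized count + 1) was computed for 14318 genes whose mean over 12 libraries reached 5, and 1 limma model (limma 3.58.1, R 4.3.3, trend on the mean) with 4 group means was fitted. P-values were Benjamini-Hochberg adjusted over all genes tested; DEGs also changed at least 2-fold. The model was also run on simulated data with independent libraries and the same spread setting for every gene. That simulation had no replicate effect, unlike the libraries here, and its outcome is not reported here. Exon lengths came from the GENCODE M21 annotation, with overlapping exons of a gene merged. The members and all lists were chosen with earlier results of these data known. Named were all 9 members, up to 3 rising and 3 falling DEGs of each pathway list with Tgfbr1 and Rnf111, and the 3 genes most alike to each member; other genes of the lists were named after their values were seen. Replicate numbers paired the libraries: after group means were subtracted, same-numbered libraries correlated at 0.157 to 0.481 over 18 pairs (mean 0.312). Differently numbered ones correlated at -0.155 on average. Subtracting group means largely fixes this second value once the first is given, so it adds no separate evidence of pairing. Alternatives were pseudocounts of 0.5 and 5, no filter, a mean of at least 50, quantile normalization, median ratio rescaling, a fit of only the compared groups, a block for the replicate number and each library left out in turn. Comparisons of protein sequences were not made, as protein sequences were not used here. Some genes of the lists are not reported here.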

Additional observations from a re-analysis of the deposited data

Results flagged for a closer look

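For 7 genes the activin A effect (log2) without FST288 differed from that with FST288 in the direct test, limma's interaction of both treatments with Benjamini-Hochberg adjusted p. The differences were 3.86 for Pmepa1, 3.78 for Smad6, 3.48 for Spsb1, 1.47 for Smad7, 1.23 for Skil, 0.36 for Smurf1 and 0.28 for Ski, each larger without FST288. For Pmepa1, Spsb1 and Smad6, the effect under FST288 was itself of 2 signs (log2 1.49, 0.61 and -1.03), none of them past the adjusted threshold.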

How the results depend on the processing

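The number of the 9 genes that passed stayed within 1.5 times its value in all 89 alternative fits of the 6 comparisons. Of 250 alternative values of single genes in Act versus CTRL and Act versus Act+FST, 243 kept their direction and their side of the threshold, none reversed, and 7, all of Smurf2 and all with 1 library left out, no longer passed, with adjusted p-values from 0.0634 to 0.129; the cause was not tested. With the replicate number as a block, 9 of 9 genes passed in Act versus CTRL, in Act versus Act+FST and in the interaction (7 without it, Bambi and Smurf2 being added), where 16.3%, 17.1% and 9.36% of all genes passed as higher. The block changed no other call of the 9. In the interaction, Bambi also passed with a mean of at least 50 (adjusted p = 0.0468), with quantile normalization (adjusted p = 0.0451) and without CTRL replicate 1 (adjusted p = 0.0369), and Smurf2 without Act+FST replicate 1 (adjusted p = 0.0354). Smad6, with a mean under 50, was not tested under that filter. The whole-number rounding limits the precision of genes as low as Smad6 and Pmepa1 outside Act.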
